A study of Homo sapiens with 12 samples.

Results

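Messages for 10 large coiled-coil proteins of the centrosome were followed in 80S ribosome fractions and in immunoprecipitates (IP) of tagged ribosomal protein RPL12 from the same fractions. The 10 members were taken by Ensembl identifier and are PCNT, CDK5RAP2, AKAP9, CEP192, CEP152, CEP135, CEP250, NIN, PCM1 and CEP290, out of 57820 gene identifiers in the deposited tables. All 10 had reads in every one of the 12 libraries, and all 10 passed the filter on low counts. The cells were HEK293 Flp-In T-Rex, an established human embryonic kidney line, and each of 3 stable lines overexpressed FLAG/HA-tagged RPL12, a protein of the large ribosomal subunit near the factor-binding stalk. The groups were IP from the S38A line (serine 38 changed to alanine, which cannot be phosphorylated), IP from the S38D line (changed to aspartate, used as a phosphorylation mimic) and IP from the wild-type (WT) line, with 80S input from the S38A, S38D and WT lines, 2 libraries each. The IP was made with anti-FLAG antibody from pooled sucrose-gradient fractions of cells treated with cycloheximide, which holds ribosomes on their messages, and input was an aliquot of the same fraction. The labels describe hygromycin selection and monoclonal colonies for these lines, state no removal of the cells' own RPL12, and list no IP from untagged cells. RNA that binds without the tag cannot be separated here from RNA held through RPL12, and the form of RPL12 and the line that carries it cannot be told apart. Nothing in the labels states that the 2 replicates of a group were grown apart, so each p-value refers to the scatter of these libraries, part of which may be technical.

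The centrosome is the main microtubule-organizing centre of animal cells: a pair of centrioles surrounded by pericentriolar material, which holds the gamma-tubulin complexes that start microtubules and which grows before mitosis. Long coiled-coil proteins build that material, the centrioles, the link between them and the surrounding granules called centriolar satellites. Their messages have long coding regions, and those of PCNT and NIN are known to be brought to the centrosome while they are being translated.

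IP libraries held 3186164 to 7430881 gene counts and input libraries 7434431 to 8723130. Levels are given as CPM, the gene's count relative to the TMM-scaled total of its library, and are not compared between genes because they are not corrected for length. The 10 members together took 0.0455% to 0.0995% of gene counts in IP libraries and 0.0371% to 0.0629% in inputs. The first WT IP library stood apart in the levels of the members. It had the fewest counts (3186164) and the largest share of ERCC spike-in RNA (5.43%, exact 95% interval 5.41% to 5.45%, counting error only), and all 10 members were higher in it than in the second WT IP library. The median excess over the members was 1.19 on the log2 scale (range 0.46 to 1.68), where the median over all 16920 tested genes was 0 and 50% of genes were higher in that library. In the IP pairs of S38A and S38D the corresponding member medians were -0.25 and -0.05. The second S38D IP library came close to the first WT IP library in depth (3695441 counts) and in spike-in share (5.18%). Results that rest on the first WT IP library are given with and without it, and the part of depth and spike-in share in its values was not tested.

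**Figure D1:**
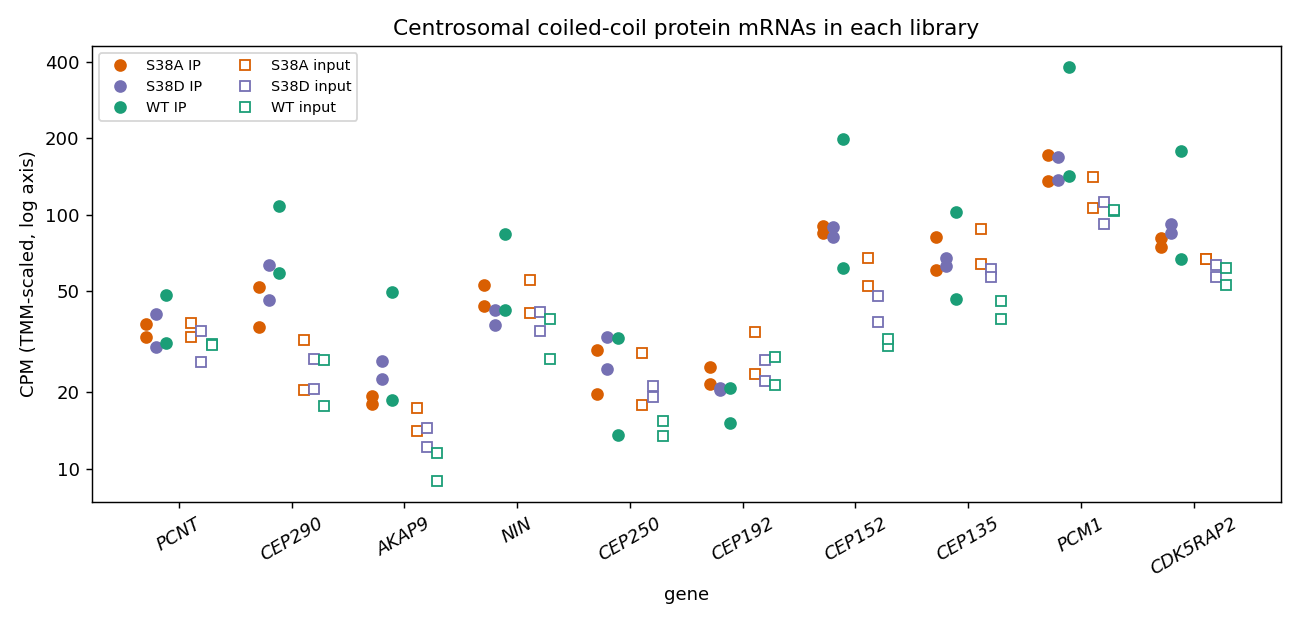
CPM of each message in each library, on a log axis, with IP libraries as filled circles left of inputs as open squares, coloured by line; each symbol is 1 library. One WT IP library, the first, lies above the other IP libraries for the messages other than CEP250, where S38D reached 33.0 CPM against 32.7 in that library, and other than CEP192, where S38A reached 25.2 CPM against 20.9.

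The question of the first comparison was which messages differed between tagged-RPL12 IP and the 80S input it was taken from. Over the 3 lines, 5 of the 10 messages were higher in IP: CEP290, CEP152, AKAP9, PCM1 and CDK5RAP2, by 1.53-fold to 2.43-fold. None was lower at adjusted p under 0.05 (edgeR quasi-likelihood test, Benjamini-Hochberg over 16920 genes). At the same threshold 15.9% of all genes were higher and 15.9% lower. The median log2 change of the 10 members was 0.51, beside -0.04 over all genes tested. The same 5 messages were the ones called higher when the first WT IP library was left out, with CEP192 then called lower. In that fit of 11 libraries 14% of all genes were higher and 15.1% lower, and the member median was 0.24 beside -0.07 over all genes. With the fraction as a replicate block, 6 were higher (CEP250 in addition, log2 0.39, edgeR adjusted p = 0.0345) and CEP192 was lower, where 22.5% and 24% of all genes were called.

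Promoter sequence is shown for 3 members that span the range of IP changes, the pair with the largest increases and the message that lay lower in IP. Each stretch is the first 150 bases of the window that RefSeq's GRCh38.p14 annotation gives for the gene, which runs from 250 bases before the start of transcription to 50 bases after it, written 5′ to 3′ on the gene's strand; the printed bases are -250 to -101. Capitals mark CCAAT or its reverse complement ATTGG, the box bound by NF-Y, and TTTGAA or TTCAAA, the core letters of the cell cycle genes homology region found in promoters of G2 and M phase genes.
CEP290 (chr12:88142189-88142338, minus strand): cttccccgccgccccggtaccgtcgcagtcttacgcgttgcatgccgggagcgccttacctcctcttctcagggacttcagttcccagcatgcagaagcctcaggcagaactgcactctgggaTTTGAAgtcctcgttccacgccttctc
CEP152 (chr15:48811170-48811319, minus strand): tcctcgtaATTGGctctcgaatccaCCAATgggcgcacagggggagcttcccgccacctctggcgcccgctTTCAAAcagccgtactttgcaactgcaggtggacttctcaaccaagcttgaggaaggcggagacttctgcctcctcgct
CEP192 (chr18:12991112-12991261, plus strand): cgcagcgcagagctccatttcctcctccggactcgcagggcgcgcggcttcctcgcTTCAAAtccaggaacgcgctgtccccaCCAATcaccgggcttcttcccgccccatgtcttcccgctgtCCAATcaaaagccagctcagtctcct
CEP152 and CEP192 held both motifs and CEP290 only the second within its window. Of the 10 members, 8 had a window in the table. CCAAT or ATTGG, searched on both strands over the whole 300 bases, was in windows of 3 of those 8 (PCNT, CEP152 and CEP192) and in 34.6% of all 35116 windows. TTTGAA or TTCAAA was in windows of 6 of 8 and in 15.2% of all windows; AKAP9 and PCNT have 2 windows each, which gave them more chances. A match is a description of letters, and no promoter was measured in these libraries.

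Of the scaffold proteins of the pericentriolar material, CDK5RAP2 and AKAP9 were higher in IP, PCNT did not pass and CEP192 lay lower. CDK5RAP2 (ENSG00000136861), which activates gamma-tubulin complexes and binds pericentrin, stood at 67.2 to 178.6 CPM in the 6 IP libraries (median 82.9) and at 53.0 to 67.03 CPM in the 6 inputs (median 62.5). Its lowest IP library lay just above its highest input, so the groups did not overlap, and 5 of the 6 IP libraries lay between 67.2 and 92.3 CPM. The increase was 1.53-fold (log2 0.62, SE 0.18, edgeR adjusted p = 0.0198). With the first WT IP library left out it was 0.32 on the log2 scale (SE 0.08, adjusted p = 0.0143). The call was lost with total-count scaling (log2 0.39, adjusted p = 0.0763), which moved the median of all genes to -0.25 and called 7.67% of them higher and 31% lower. It was also lost without the first WT input (log2 0.58, adjusted p = 0.052), where 13.3% of all genes were higher.

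AKAP9 (ENSG00000127914), a scaffold that holds protein kinase A and other enzymes at the centrosome and the Golgi, stood at 18.0 to 49.8 CPM in IP (median 20.95) and at 8.95 to 17.3 CPM in input (median 13.1). Again every IP library lay above every input, by little in S38A and by most in the first WT fraction. The increase was 1.93-fold (log2 0.95, SE 0.21, edgeR adjusted p = 0.00432), and log2 0.66 (SE 0.14, adjusted p = 0.00501) without the first WT IP library. That library held 2.67 times the CPM of the second.

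PCNT (ENSG00000160299), pericentrin, the large scaffold that anchors gamma-tubulin complexes and shares a centrosome-targeting domain with AKAP9, stood at 30.3 to 48.3 CPM in IP (median 35.1) and at 26.2 to 37.5 CPM in input (median 32.1). The ranges overlapped over most of their length. The log2 change was 0.19 (95% interval -0.11 to 0.48, edgeR adjusted p = 0.319) and was 0.06 (interval -0.21 to 0.34) without the first WT IP library. The intervals therefore hold no 2-fold change of PCNT in either direction.

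CEP192 (ENSG00000101639), which brings the kinases PLK1 and Aurora A to the pericentriolar material and, with CEP152, docks PLK4 on the centriole, was the member whose change was negative. It stood at 15.2 to 25.2 CPM in IP (median 20.9) and at 21.4 to 34.6 CPM in input (median 25.3). IP was lower than input in 6 of 6 fractions, by 0.04 to 0.845 on the log2 scale, and 4 of the 6 IP libraries lay below every input. Over all genes, 23.3% were lower in 6 of 6 fractions. The log2 change was -0.34 (SE 0.14, edgeR adjusted p = 0.091), which did not pass. It passed with the fraction as a replicate block (-0.34, adjusted p = 0.0358), without the first WT IP library (-0.43, adjusted p = 0.0478) and with total-count scaling (-0.56, adjusted p = 0.00898).

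**Figure D2:**
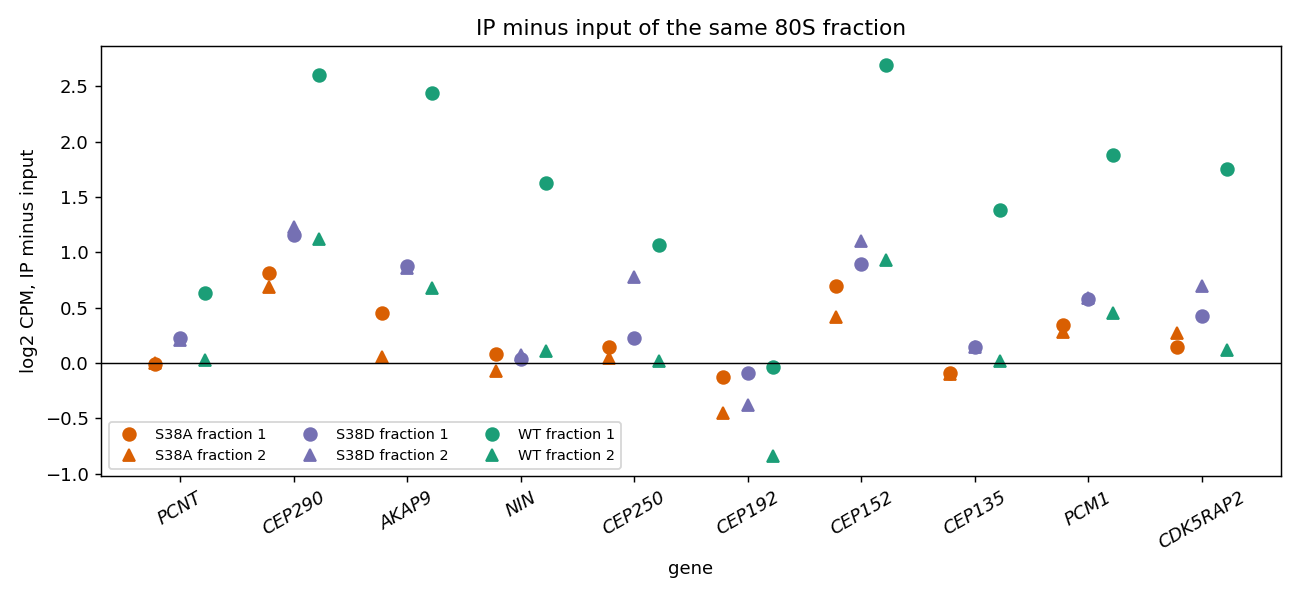
Difference in log2 CPM between the IP and the input library of the same 80S fraction for each message, with circles for the first and triangles for the second fraction of a line, coloured by line; the horizontal line marks no difference. The first WT fraction is the highest for all 10 messages, and CEP192 is below 0 in 6 of 6 fractions.

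Both proteins of early centriole assembly were measured, and they differed in outcome. CEP152 (ENSG00000103995), the partner of PLK4 in centriole duplication and a gene of inherited microcephaly, stood at 61.8 to 198.4 CPM in IP (median 87.05) and at 30.5 to 67.65 CPM in input (median 42.9). In 5 of the 6 IP libraries it lay above every input, the second WT IP library being the one that fell among the inputs of S38A. Within its own fraction IP exceeded input in 6 of 6 cases, by 0.42 to 2.69 on the log2 scale. The increase was 2.28-fold (log2 1.19, SE 0.21, edgeR adjusted p = 0.00147), and log2 0.83 (SE 0.10, adjusted p = 0.000361) without the first WT IP library.

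CEP135 (ENSG00000174799), a protein of the centriole cartwheel and wall, stood at 46.6 to 102.2 CPM in IP (median 65.2) and at 39.0 to 88.0 CPM in input (median 58.9). The ranges overlapped, and 1 IP library, the first of WT, lay above every input. The log2 change was 0.28 (interval -0.08 to 0.64, edgeR adjusted p = 0.228) and 0.05 (interval -0.21 to 0.32) without that library. CEP135 passed when the second WT IP library was left out (log2 0.44, adjusted p = 0.0155), a fit in which the first stands alone for WT IP and 16.6% of all genes were higher.

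The linker and appendage proteins did not pass. CEP250 (C-Nap1, ENSG00000126001), which roots the link between the centrioles, stood at 13.7 to 33.0 CPM in IP (median 27.1) and at 13.5 to 28.5 CPM in input (median 18.5), with a log2 change of 0.41 (interval -0.04 to 0.86, edgeR adjusted p = 0.152). IP exceeded input in 6 of 6 fractions, though by only 0.02 in the second WT fraction, and 20.3% of all genes did so. NIN (ninein, ENSG00000100503), which anchors microtubules at the subdistal appendages of the mother centriole, stood at 36.7 to 84.0 CPM in IP (median 42.9) and at 27.0 to 55.5 CPM in input (median 40.0). Its log2 change was 0.32 (interval -0.04 to 0.69, edgeR adjusted p = 0.164). When the first WT IP library was left out, the log2 changes were 0.16 for CEP250 (adjusted p = 0.537) and 0.13 for NIN (adjusted p = 0.523).

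The satellite protein and the ciliary protein were both higher in IP. PCM1 (ENSG00000078674), the scaffold of centriolar satellites, stood at 135.2 to 382 CPM in IP (median 155.6) and at 91.7 to 141.1 CPM in input (median 105.4). Within fractions IP exceeded input in 6 of 6 cases, and 4 IP libraries lay above every input. The increase was 1.67-fold (log2 0.74, SE 0.19, edgeR adjusted p = 0.0118), and log2 0.44 (SE 0.11, adjusted p = 0.0135) without the first WT IP library.

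CEP290 (ENSG00000198707), a protein of the ciliary transition zone and of satellites whose loss causes ciliopathies, had the largest increase of the 10. It stood at 36.3 to 108.3 CPM in IP (median 55.4) and at 17.7 to 32.1 CPM in input (median 23.7). Every IP library lay above every input. The increase was 2.43-fold (log2 1.28, SE 0.19, edgeR adjusted p = 0.000524) and ranked at the 99.2 percentile of log2 changes over all genes tested. Leaving out the first WT IP library gave 1.11 on the log2 scale (SE 0.18, adjusted p = 0.00118).

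**Figure D3:**
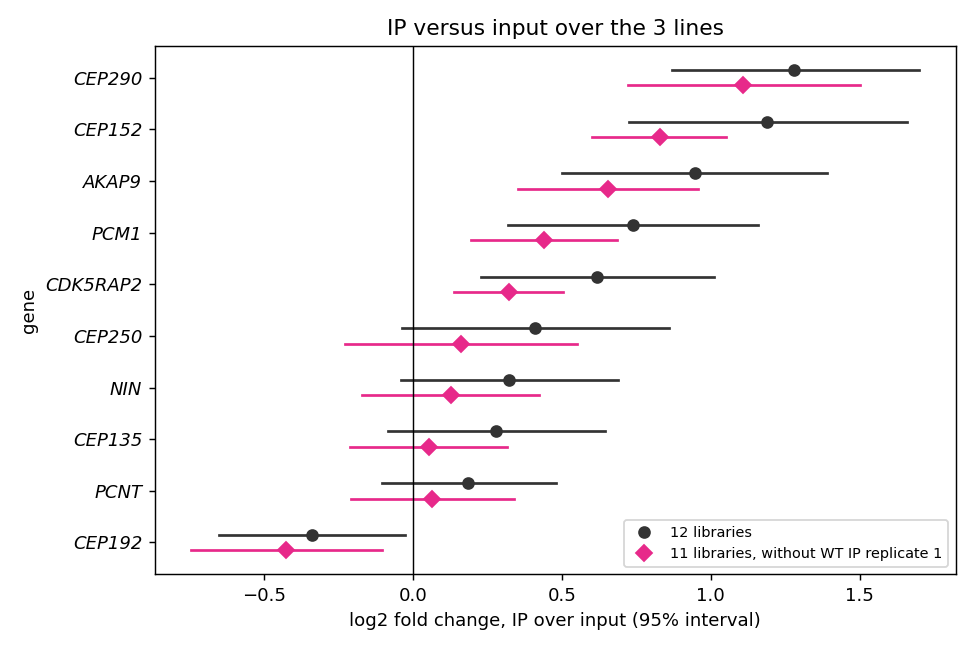
Log2 fold change of IP over input across the 3 lines for each message, with 95% intervals; circles are the fit of 12 libraries and diamonds the fit of 11 without the first WT IP library. All 5 called messages keep intervals above 0 in both fits, while CEP250, NIN, CEP135 and PCNT have intervals that include 0 and CEP192 lies below 0.

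In all, 3 of 10 messages (CEP290, AKAP9 and CDK5RAP2) had IP libraries that all lay above all inputs, where 6.15% of all genes did, and 0 had IP libraries that all lay below, where 6.86% did. Per RefSeq's GRCh38.p14 table, 7 of the 10 genes overlap another annotated gene. For CEP290 one of these is the protein-coding RLIG1, and for CEP250 it is CEP250-AS1. PCNT and PCM1 also overlap a protein-coding entry. Overlap was taken over whole gene spans, without regard to exons or strand, so the counted bases that are shared were not measured. Whether the deposited counts used strand is not stated. Whether reads of an overlapping gene entered a member's count therefore cannot be told. Of the 5 messages higher in IP, AKAP9 and CDK5RAP2 have no overlapping gene in that table.

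The same messages were then taken line by line, beginning with S38A. In S38A 0 of 10 messages passed in edgeR, as did 0% of all genes. One message, CEP290, was at unadjusted p under 0.05, where 15.2% of all genes were. DESeq2 called 0 of 10, beside 1.39% of all genes higher and 1.34% lower, and a replicate block by fraction also gave 0 of 10, beside 5.92% higher and 6.37% lower. CEP290 stood at 36.3 and 52.05 CPM in S38A IP, against 20.5 and 32.1 CPM in S38A input. Both IP libraries lay above both inputs, and the log2 change was 0.75 (SE 0.33, edgeR adjusted p = 0.305). It did not pass in any of the alternatives run (adjusted p 0.0795 to 0.679). The median over the 10 messages was 0.15 beside 0.00054 over all genes.

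In S38D, 0 of 10 passed in edgeR, where 3.13% of all genes were higher and 1.74% lower, and 3 messages (CEP290, CEP152 and AKAP9) were at unadjusted p under 0.05, where 22.1% of all genes were. CEP290 stood at 46.4 and 63.6 CPM in S38D IP, against 20.6 and 27.0 CPM in S38D input, a log2 change of 1.2 (SE 0.33, edgeR adjusted p = 0.0571). For 7 of the 10 messages both S38D IP libraries lay above both S38D inputs, where 25.7% of all genes did so. CEP290 and CEP152 passed with the fraction as a replicate block (CEP290 log2 1.2, adjusted p = 0.0119), where 10.7% of all genes were higher. The same 2 were the messages called by DESeq2, which called 7.03% of all genes higher. In the fit without the first WT IP library AKAP9 and CDK5RAP2 passed as well, and 6.18% of all genes were then higher. The count was also 4 with the whole first WT fraction left out (5.46% of all genes higher), 3 with only the S38D libraries (7.15%) and 2 with no filter on low counts (2.8%). The median over the 10 messages was 0.54 beside -0.05 over all genes. Without the first WT IP library that median was 0.514, and without the second it was 0.535. The same messages were called in S38D whichever WT IP library was left out.

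In WT, 5 of 10 messages were higher in IP, again CEP290, CEP152, AKAP9, PCM1 and CDK5RAP2, where 5.77% of all genes were higher and 5.48% lower. These values rest on replicates that lay far apart. CEP152 stood at 198.4 and 61.8 CPM in WT IP, against 30.5 and 32.3 CPM in WT input (log2 2.03, SE 0.38, edgeR adjusted p = 0.0105). CEP290 stood at 108.3 and 58.7 CPM in WT IP, against 17.7 and 26.8 CPM in WT input (log2 1.90, SE 0.34, adjusted p = 0.00835). For both messages the IP replicates lay above the inputs, and the first IP replicate lay far above the second.

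AKAP9 stood at 49.8 and 18.6 CPM in WT IP, against 8.95 and 11.5 CPM in WT input (log2 1.71, SE 0.37, edgeR adjusted p = 0.0154). PCM1 stood at 382 and 142.4 CPM in WT IP, against 103.8 and 104.1 CPM in WT input (log2 1.32, SE 0.34, adjusted p = 0.0288). CDK5RAP2 stood at 178.6 and 67.2 CPM in WT IP, against 53.0 and 61.9 CPM in WT input (log2 1.08, SE 0.31, adjusted p = 0.0444). Of the 21 alternatives run in WT, CDK5RAP2 passed in 6, where CEP290, AKAP9 and PCM1 passed in 16 and CEP152 in 17. Its call was lost with total-count scaling (log2 0.78, edgeR adjusted p = 0.0773). In the second WT fraction IP exceeded input by 0.68 for AKAP9, 0.45 for PCM1 and 0.12 for CDK5RAP2 on the log2 scale, and in the first by 2.44, 1.88 and 1.75.

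Without the first WT IP library, CEP152 alone passed (log2 0.997, edgeR adjusted p = 0.0389), where 1.32% of all genes were higher. The changes of CEP290, AKAP9, PCM1 and CDK5RAP2 were then 1.43, 0.89, 0.47 and 0.25, with adjusted p of 0.0582, 0.109, 0.264 and 0.448. With both libraries of the first WT fraction left out, 0 of 10 and 0% of all genes passed in edgeR without a block, with 3 of 10 and 16.6% of all genes at unadjusted p under 0.05. With the fraction as a replicate block and the same libraries, the largest log2 increases were 1.13 for CEP290 and 0.93 for CEP152. Next came 0.69 for AKAP9 and 0.45 for PCM1, and CEP192 changed by -0.86. WT then rests on 1 fraction, which is assumed to vary like those of the other lines, so calls of that fit are not given. Leaving out the first WT input gave 0 of 10, beside 0.348% of all genes higher, with 5 of 10 and 22% of all genes at unadjusted p under 0.05. Leaving out the second gave 0 of 10 and 0% of all genes, with 7 of 10 and 17.4% of all genes at unadjusted p under 0.05. The log2 changes did not shrink in that fit, being 2.22 for CEP290, 2.07 for CEP152, 1.90 for AKAP9, 1.32 for PCM1 and 1.19 for CDK5RAP2. The same held with only the 4 WT libraries, where 0 of 10 and 0% of all genes passed, 7 of 10 and 23.7% of all genes were at unadjusted p under 0.05, and the changes of these 5 messages were 1.12 to 2.07. Leaving out the second WT IP library gave 8 of 10, where 9.31% of all genes were higher. NIN passed in addition with the fraction as a replicate block (log2 0.87, adjusted p = 0.0358), where 14% of all genes were higher. DESeq2 called 7 of 10, with NIN (adjusted p = 0.0166) and CEP135 (adjusted p = 0.0404) in addition, and 1572 of 16920 genes higher. The same 7 passed in edgeR with no filter on low counts, where 1239 of 33516 genes were higher. The median over the 10 messages was 1.00 with all libraries, 0.31 without the first WT IP library and 0.115 with the first WT fraction left out, where the S38A median was 0.149.

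Whether the IP over input difference itself differed between lines was tested by interaction contrasts in the same fit. For S38A against WT, 9 of 10 messages had a negative log2 difference, CEP192 being the exception, and the median was -0.90 beside 0.05 over all genes. The median was -0.24 with 8 negative when the first WT IP library was left out, and -0.115 with 7 negative when the first WT fraction was. In edgeR 0 of 10 passed, as did 0% of all genes, and DESeq2 called 0. At unadjusted p under 0.05 there were 4 messages (CEP290, AKAP9, NIN and CEP152), all with negative differences, where 1.69% of all genes were at that level and lower. That count is from the fit of all 12 libraries and rests on the first WT IP library. Over the alternatives run, the differences came as near 0 as -0.38 for CEP290, -0.45 for AKAP9, -0.11 for NIN and -0.39 for CEP152. CEP152 differed by -1.48 (SE 0.52, edgeR adjusted p = 1) and AKAP9 by -1.46 (SE 0.50, adjusted p = 1). These were -0.48 and -0.68 when the first WT IP library was left out. Without the second, 5 messages passed (AKAP9, CEP152, CEP135, PCM1 and CDK5RAP2), all lower in S38A, where 1.64% of all genes were lower. With no filter on low counts 1 passed (CEP152), where 0.116% of all genes were lower. The count thus differed with the WT IP library that was kept.

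For S38D against WT, 0 of 10 passed in edgeR, as did 0% of all genes, with 0 at unadjusted p under 0.05 and 0 called by DESeq2. CEP152 differed by -1.04 (95% interval -2.18 to 0.10) and NIN by -0.87 (interval -1.77 to 0.04). Without the first WT IP library CEP152 differed by -0.03 and NIN by -0.35. For S38D against S38A, all 10 messages had a positive difference, where 46.8% of all genes did. The median was 0.31 beside -0.02 over all genes. The contrast itself takes no WT level, but its scaling and spread come from a fit that includes the WT libraries. Leaving out the second S38A input gave a median of 0.08 with 7 of 10 positive, and leaving out the first S38A IP library gave 0.20 with 8 of 10. None passed in edgeR (0 of 10, 0% of all genes, 0 at unadjusted p under 0.05) or in DESeq2, and AKAP9 had the largest difference at 0.635 (interval -0.45 to 1.72). These 3 contrasts share libraries, so their values are not independent of each other.

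Levels in the 80S inputs, before IP, were then set against each other between lines. All 10 messages had a positive log2 change in S38A over WT input, though 7 of 10 with spike-in scaling (median 0.197) and 8 of 10 without the second S38A input (median 0.31). In edgeR 0 of 10 passed, as did 0% of all genes (fit of the 6 inputs, 16728 genes), and the median was 0.43 beside -0.02 over all genes. At unadjusted p under 0.05 there were 5 messages (CEP152, CEP135, CEP250, NIN and AKAP9), all higher in S38A, where 8.86% of all genes were at that level and higher. For 8 of the 10 both S38A inputs lay above both WT inputs, where 21.8% of all genes did so. The inputs are bulk 80S fractions and not total RNA. Changes in the cells that carry a message, in its amount per cell or in its 80S share cannot be told apart.

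CEP152 stood at 52.4 and 67.65 CPM in S38A input, against 30.5 and 32.3 CPM in WT input. The log2 change was 0.96 (SE 0.19), with an adjusted p of 0.17 in edgeR. CEP135 stood at 64.3 and 88.0 CPM in S38A input, against 39.0 and 45.9 CPM in WT input (log2 0.865, SE 0.18, edgeR adjusted p = 0.17). Both proteins of early centriole assembly thus lay highest in S38A input, and both passed in DESeq2, with no filter on low counts and without the first S38A input. DESeq2 called 1.72% of all genes higher in S38A, the unfiltered fit 1.92% and the fit without the first S38A input 1.73%. With spike-in scaling of the inputs, which moved the median of all genes to -0.44, CEP152 had a log2 change of 0.59 and did not pass (edgeR adjusted p = 1).

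S38D inputs lay between the other lines for most messages. Against WT, CEP135 stood at 60.95 and 56.9 CPM in S38D input and at 39.0 and 45.9 CPM in WT input (log2 0.49, SE 0.18, edgeR adjusted p = 1). CEP250 stood at 21.2 and 19.2 CPM in S38D input and at 15.5 and 13.5 CPM in WT input (log2 0.50, interval -0.08 to 1.07, adjusted p = 1). In edgeR 0 of 10 passed, beside 0.00598% of all genes, with 2 of 10 and 3.32% of all genes at unadjusted p under 0.05 and 0 called by DESeq2. With spike-in scaling both changes turned negative, -0.28 for CEP135 and -0.40 for CEP250, while the median of all genes moved to -0.83. Spike-in RNA made up 0.116% of counts in the first WT input and 0.484% in the second. Against S38A, all 10 messages had a negative log2 change in S38D input (median -0.25 beside 0.00079 over all genes). The median was -0.10 with 7 negative without the second S38A input and -0.48 with 10 negative without the first. The largest negative change was that of CEP152, which stood at 47.8 and 37.98 CPM in S38D input and 52.4 and 67.65 CPM in S38A input (log2 -0.48, interval -0.90 to -0.07, edgeR adjusted p = 0.959). None passed in edgeR (0 of 10, beside 0.00598% of all genes higher and 0% lower, with 1 of 10 and 3.77% of all genes at unadjusted p under 0.05) or in DESeq2.

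**Figure D4:**
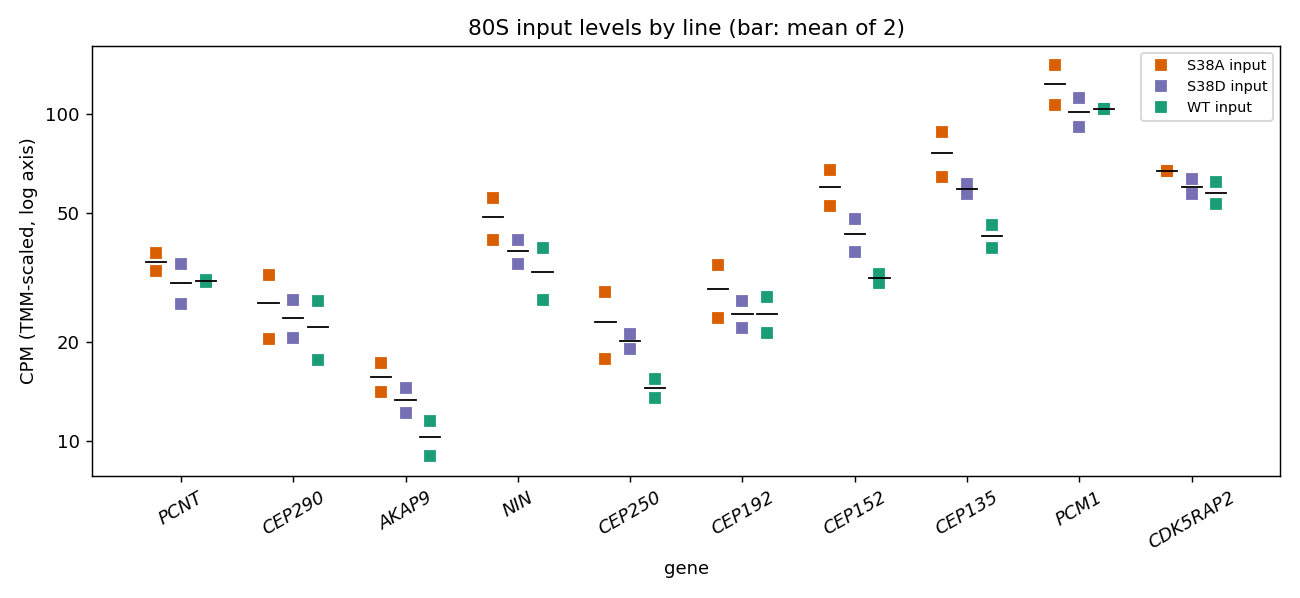
CPM of each message in the input libraries, on a log axis, by line; each square is 1 library and the bar the mean of 2. For 8 messages, all but CEP290 and CEP192, both S38A squares lie above both WT squares. For CEP152 these are 52.4 and 67.65 CPM against 30.5 and 32.3 CPM.

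Across the 12 libraries most of the messages varied together. The 45 pairwise correlations of log2 CPM had a median of 0.70 (range -0.38 to 0.94), and without the first WT IP library a median of 0.49 (range -0.37 to 0.90). The most alike pair was AKAP9 and CDK5RAP2, at 0.94 over 12 libraries and 0.90 over 11. CEP192 was the message least like the others, with a median correlation of -0.20. These points share libraries and their scaling, and the correlations describe these libraries only. Correlations among other genes were not computed, so joint variation is not shown to be particular to these messages.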

How the data were processed

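RNA of 80S fractions and of anti-FLAG IP from them was measured in 12 libraries of HEK293 lines, 2 per group. The authors deposited raw read counts per Ensembl gene (57820) and ERCC sequence (92). Tools listed per the submitters' processing notes are STAR 2.4.2a, bcl2fastq 2.16.0.10 and DESeq2, with build hg19; for the counter, its strand setting and the annotation nothing is given in the sources used. Members were matched by identifier. The reference table held 59792 genes, 0 with an Ensembl identifier, so lists of other centrosome genes and line markers fixed by symbol, and the tagged gene, were not analysed here, and no non-member gene is named for likeness. The members and lists were chosen with earlier results of these data known.

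Counts were fitted in R 4.3.3 with edgeR 4.0.16 (filterByExpr with a minimum count of 10, TMM, glmQLFit, glmQLFTest), with ERCC left out of library sizes. IP comparisons used all 12 libraries (16920 genes, biological coefficient of variation 17.4%) and input comparisons the 6 inputs (16728 genes, 15.7%). P-values were adjusted over all genes within each of 10 comparisons, with calls at adjusted p under 0.05. CPM was taken over TMM-scaled gene counts; log2 CPM used a prior count of 2. The standard error is the log2 change over the square root of F, with 95% intervals from its t distribution. All 10 members were named by rule, in other comparisons those that passed or, with none, the lowest p and the largest change.

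Same-numbered IP and input libraries come from 1 fraction per the labels, and their deviations correlated at 0.64 in S38A, 0.54 in S38D and 0.28 in WT, so a fit with a replicate block by fraction was among the alternatives. Replicates of a group differed beyond counting error (chi-square over genes, 5.39 to 16.0 per degree of freedom). Other alternatives were RLE factors, total counts, DESeq2 1.42.0, no filter, mean CPM of at least 10, only the 4 libraries of a line, ERCC scaling of inputs and leaving out each library; leaving out the first WT fraction was chosen after seeing the data. The fits were tested on simulated data.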

Additional observations from a re-analysis of the deposited data

Results flagged for a closer look

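For 2 messages IP minus input had the opposite sign in the fractions of S38A from those of another line. How many of all genes split in this way was not counted. CEP135 was below 0 in both S38A fractions (-0.0883 and -0.102). It was above 0 in both WT fractions (1.38 and 0.0207) and both S38D fractions (0.146 and 0.145), the first WT fraction lying farthest from 0. The mean log2 difference of CEP135 was -0.797 for S38A minus WT and 0.241 for S38D minus S38A. PCNT had the same signs but lay near 0 in S38A (-0.0126 and -0.00389) and in the second WT fraction (0.0272). It stood at 0.632 in the first WT fraction and at 0.224 and 0.204 in S38D. Its mean differences were -0.338 for S38A minus WT and 0.222 for S38D minus S38A. None of these passed as an interaction contrast (edgeR adjusted p = 1 for each). The fitted S38A against WT differences were -0.88 for CEP135 and -0.36 for PCNT with all libraries, -0.28 and -0.08 without the first WT IP library, and -0.115 and -0.04 with the first WT fraction left out. The fitted S38D against S38A difference of CEP135 was 0.24, and -0.00372 without the second S38A input; that of PCNT was 0.23, and -0.00486 without the first S38D IP library. ERCC spike-in RNA, which entered no IP comparison, averaged 3.43% of counts in IP libraries (SD 1.65, n = 6) and 0.305% in inputs (SD 0.127, n = 6).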

How the results depend on the processing

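Of the log2 changes of members in the comparisons named, 429 kept direction and side of the threshold, 23 newly passed, 36 no longer passed and 4 turned sign; the cause was not tested. CEP290, AKAP9, CEP152 and PCM1 passed in all 20 alternatives over the 3 lines, and CDK5RAP2 in 18. The sign turned for PCNT with total counts (-0.032), for CEP152 in S38D versus WT with the first WT fraction left out (0.0574), and with spike-in scaling for CEP135 (-0.277) and CEP250 (-0.399) in S38D versus WT input.

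Members called over the 3 lines numbered 4 to 8 with 1 library left out. The share of all genes called also moved between the fits named in this paragraph. Such shares are given with the counts above, and no count is read alone. In S38D the 0 calls became 2 with DESeq2, 2 with no filter, 2 with the replicate block, 3 with only the line's libraries, 4 with the first WT fraction left out and 0 to 4 with 1 library left out. In WT the 5 calls became 0 with only the line's libraries (log2 changes no smaller), 0 with the first WT fraction left out and 0 to 8 with 1 library left out. In the S38A against WT interaction the 0 calls became 1 with no filter (CEP152) and 0 to 5 with 1 library left out. For S38A versus WT in input they became 2 with DESeq2, 2 with no filter and 0 to 2 with 1 library left out. Against the fits of all libraries, the replicate block by fraction moved no other count of members by over 1.5 times. With the first WT fraction left out, WT holds 1 fraction, so its count with the block is not given. Among inputs, where numbers mark no shared fraction, the block called 0.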
